A study of Mus musculus with 6 samples.

Results

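RANK ligand (Tnfsf11), its receptor RANK (Tnfrsf11a) and the decoy receptor osteoprotegerin (Tnfrsf11b) form a signaling axis of the tumor necrosis factor family. They were chosen by name and located by Ensembl identifier, and all 3 had a probe set among the 25949 deposited. The probe sets are ENSMUSG00000022015_at for Tnfsf11, ENSMUSG00000026321_at for Tnfrsf11a and ENSMUSG00000063727_at for Tnfrsf11b. Mammary buds of Eda-/- mouse embryos on a B6CBA background were isolated at E13.5 and incubated for 4 h, either non-treated (control) or in the presence of recombinant Fc-Eda-A1 protein (Fc-Eda). All 6 samples lack the endogenous Eda ligand, including the controls, so that no sample represents a wild type bud. Each condition had 3 biological replicates, measured on exon arrays of Affymetrix (Mouse Exon 1.0 ST), whose probes lie along the exons of each gene. A sample was a pool of approximately 20 buds from 5 to 6 embryos, the embryos came from 3 litters, and the buds of an embryo were divided between the conditions, so that arrays with the same replicate number form a pair. Most of the surrounding mesenchyme had been removed by hand, and the values are averages over the cells that remained, in which fewer cells of a type and less RNA per cell cannot be told apart.

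RANK ligand is a membrane-bound or shed cytokine that binds RANK on the receiving cell. RANK recruits Traf proteins, Traf6 in particular, and thereby activates NF-κB, the same transcription factor on which the Eda receptor Edar acts. Osteoprotegerin is a secreted protein that binds RANK ligand and keeps it from RANK. The axis is best known for the formation of osteoclasts, and in the adult mammary gland RANK ligand acts downstream of progesterone on neighbouring epithelial cells. The question put to the arrays was whether the transcripts of ligand, receptor or decoy changed within 4 h of Eda exposure.

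The promoters of the ligand and the receptor are shown as the regulatory sequence on which a transcription factor such as NF-κB could act. RefSeq sequences on GRCm38.p6 were matched by symbol for 2 of the 3 genes. The 250 bases before the start of each gene are printed 5′ to 3′ on the strand of the gene, with capitals for TATAA, searched on both strands. For Tnfsf11 they are chr14:78308044-78308293 on the minus strand, and for Tnfrsf11a chr1:105780473-105780722 on the plus strand.
Tnfsf11: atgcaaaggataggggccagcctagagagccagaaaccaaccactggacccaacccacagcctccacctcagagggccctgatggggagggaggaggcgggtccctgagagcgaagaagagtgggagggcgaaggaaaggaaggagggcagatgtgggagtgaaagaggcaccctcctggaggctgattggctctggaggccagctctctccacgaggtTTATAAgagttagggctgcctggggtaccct
Tnfrsf11a: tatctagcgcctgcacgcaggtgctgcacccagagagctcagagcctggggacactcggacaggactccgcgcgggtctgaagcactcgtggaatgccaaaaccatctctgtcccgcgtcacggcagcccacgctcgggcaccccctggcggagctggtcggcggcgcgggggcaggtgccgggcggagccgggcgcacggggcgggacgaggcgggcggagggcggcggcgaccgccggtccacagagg
The Tnfsf11 promoter holds TATAA once on each strand, in overlapping positions, and on the strand of the gene its first base lies 30 bases before the start. The Tnfrsf11a promoter has no match. TATAA on either strand was found in 22.8% of the 32851 promoters. The GC content was 60.4% in Tnfsf11 and 73.6% in Tnfrsf11a, beside a median of 52.4% over all promoters. The NF-κB consensus, searched by its degenerate form on both strands over the 300 bases that include 50 after the start, was found in neither gene and in 8.46% of all promoters. No match says only that these letters are not in this window.

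None of the 3 genes passed the test, and neither did any other probe set, so this outcome does not set them apart. Comparing Fc-Eda with control in limma, a moderated linear model fitted here to all probe sets with the replicate number as a block, 0 of the 3 were called at a q-value under 0.05, where 0% of all 25949 probe sets were called higher and 0% lower. Without adjustment, 0 of the 3 had a p under 0.05, beside 6.06% of all probe sets, of which 2.73% were higher and 3.33% lower. IBMT and a Cyber-T type test, which tie the expected variance to the expression level, called 0.362% and 0.744% of all probe sets and 0 of the 3 genes. The paper, which took a q-value under 0.05 in any of limma, IBMT and Cyber-T, reported probes changed in both directions. In the replicates 2 and 3, none of the 3 genes differed between Fc-Eda and control by more than 0.104 on the log2 scale.

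The array of control replicate 1 stood apart from the others. Its median over all probe sets was 4.99 and its interquartile range 2.59, where the other 5 arrays had medians of 4.80 to 4.83 and interquartile ranges of 2.81 to 2.96. Control 1 was the highest of the 6 arrays in 38.3% of all probe sets. The limma difference of each gene and the ratio of ligand to decoy are therefore given with and without replicate 1. No detection call was used, so whether a level lies above background was not judged. Levels of the 3 genes are not compared with each other, though probe sets are grouped and filtered by level below. The tissue was not checked here against its markers, because neither the deposited values nor the reference table used here pair the other identifiers with gene names.

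Tnfsf11, the ligand, had a log2 level of 6.94 on the array of control 1, 6.37 on control 2 and 6.38 on control 3. After Fc-Eda treatment it was at 6.42 in replicate 1, 6.43 in replicate 2 and 6.39 in replicate 3. Control 1 lay above all others by 0.52, and the remaining 5 arrays fell within 0.058 of each other. The groups overlapped, since both other controls were below all 3 Fc-Eda arrays. The means were 6.56 ± 0.33 (SD, n = 3) in control and 6.41 ± 0.018 (SD, n = 3) in Fc-Eda. The difference between Fc-Eda and control was -0.53 in replicate 1, 0.058 in replicate 2 and 0.015 in replicate 3. The mean difference was -0.15 with a standard error of 0.14 and a 95% interval from -0.51 to 0.21 (q = 0.757, limma). On a linear scale this is a ratio of 0.901 with an interval from 0.703 to 1.15. With replicate 1 left out, the difference turned to 0.037 with an interval from -0.17 to 0.24 (q = 0.815, limma). The sign of the mean for the ligand thus rested on a single control array.

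Tnfrsf11a, the receptor, also had control 1 as its highest array. Its log2 level was 4.39 on control 1, 3.93 on control 2 and 3.91 on control 3, against 3.93, 3.99 and 3.93 in the Fc-Eda replicates 1, 2 and 3. Control 1 was higher than all others by 0.40, the other 5 arrays spanned 0.079, and the groups overlapped. Its mean on those 5 arrays was 3.94, below the median over all probe sets on every array, and whether it lies above background was not judged. The means were 4.08 ± 0.27 (SD, n = 3) in control and 3.95 ± 0.036 (SD, n = 3) in Fc-Eda. The paired differences were -0.46, 0.066 and 0.016. The mean difference was -0.13 with a standard error of 0.13 and a 95% interval from -0.46 to 0.20 (q = 0.759, limma), a ratio of 0.916 with an interval from 0.729 to 1.15. Without replicate 1 it was 0.041 with an interval from -0.17 to 0.25 (q = 0.809, limma). Ligand and receptor were thus both lower after Fc-Eda in replicate 1 and higher by at most 0.066 in the other two, and neither mean difference passed the test.

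Tnfrsf11b, the decoy receptor, differed from the signaling pair in that control 1 was not its highest array. Its log2 level was 5.23 on control 1, 5.58 on control 2 and 5.28 on control 3. After Fc-Eda treatment it was 5.32, 5.47 and 5.22 in the replicates 1, 2 and 3. Both arrays of replicate 2 lay above all 4 others, whichever the treatment, an arrangement shared by 7.9% of all probe sets. The mean of the replicate 2 arrays was 5.52, beside 5.27 in replicate 1 and 5.25 in replicate 3, yet a limma F-test over the replicate number, chosen after the values had been seen, did not call the gene (q = 0.295), nor any of the 25949 probe sets (0%). The group means were 5.36 ± 0.19 (SD, n = 3) in control and 5.33 ± 0.13 (SD, n = 3) in Fc-Eda. Fc-Eda and control differed by 0.084 in replicate 1, -0.10 in replicate 2 and -0.059 in replicate 3. The mean difference was -0.026 with a standard error of 0.086 and a 95% interval from -0.24 to 0.19 (q = 0.823, limma), a ratio of 0.982 with an interval from 0.844 to 1.14. Without replicate 1 it was -0.081, with an interval from -0.29 to 0.13 (q = 0.734, limma).

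**Figure D1:**
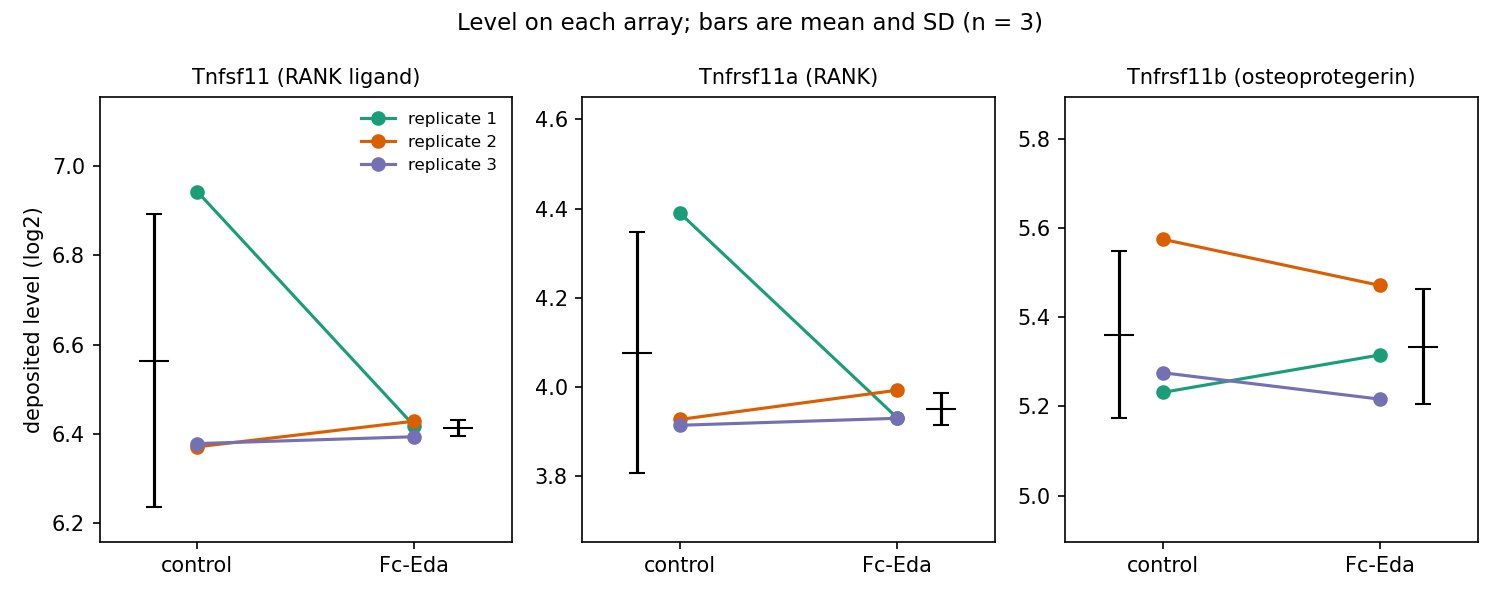
Deposited log2 level of Tnfsf11, Tnfrsf11a and Tnfrsf11b on each of the 6 arrays, with lines joining control and Fc-Eda of the same replicate and black bars giving mean and SD (n = 3); each panel spans 1 log2 unit. Control 1 is the highest array for Tnfsf11 (6.94) and Tnfrsf11a (4.39), and replicate 2 is the highest pair for Tnfrsf11b (5.58 and 5.47).

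None of them went the same way in all 3 replicates, where 28.5% of all probe sets did. None had groups that did not overlap, where 9.09% of all probe sets did. Tnfsf11 and Tnfrsf11a were lower in replicate 1 and higher in replicates 2 and 3, and Tnfrsf11b had the opposite sign in each. Over all probe sets, 59.2% were lower after Fc-Eda in replicate 1, 49.9% in replicate 2 and 47.7% in replicate 3. A mean difference at least as large in size was seen in 25.8% of all probe sets for Tnfsf11, in 33.6% for Tnfrsf11a and in 83.1% for Tnfrsf11b.

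**Figure D2:**
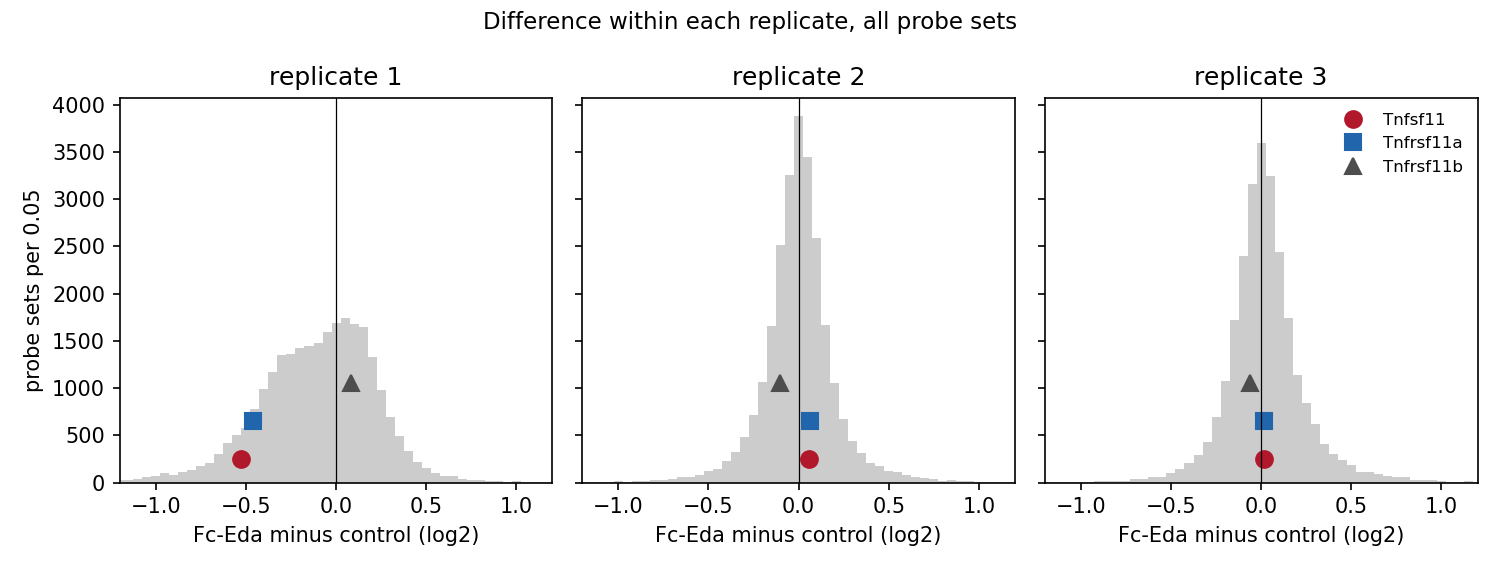
Distribution of the log2 difference between Fc-Eda and control over all 25949 probe sets in each replicate (grey, probe sets per bin of 0.05), with Tnfsf11, Tnfrsf11a and Tnfrsf11b marked at their own difference; the height of the markers has no meaning. Replicate 1 is wider, with a standard deviation of 0.33 beside 0.21 and 0.23, and Tnfsf11 (-0.53) and Tnfrsf11a (-0.46) lie on its left side there and within 0.066 of 0 in replicates 2 and 3.

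The negative differences of the ligand and the receptor in replicate 1 were set beside the differences of probe sets of like level. Probe sets were divided into 10 bins of equal size by their mean on the 5 arrays other than control 1. In the bin that holds Tnfrsf11a, from 3.75 to 4.26, the median difference in replicate 1 was -0.28, with quartiles of -0.44 and -0.12, so that the -0.46 of the receptor lay just below the lower quartile. In the bin that holds Tnfsf11, from 6.07 to 6.72, the median was 0.098, with quartiles of -0.027 and 0.22. The -0.53 of the ligand therefore went against the direction of its bin. In the bin of Tnfrsf11b, from 4.81 to 5.43, the median was -0.11 and the quartiles were -0.31 and 0.074, and the 0.084 of the decoy receptor lay just above the upper one. In replicates 2 and 3 the medians of these 3 bins were between -0.016 and 0.011.

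**Figure D3:**
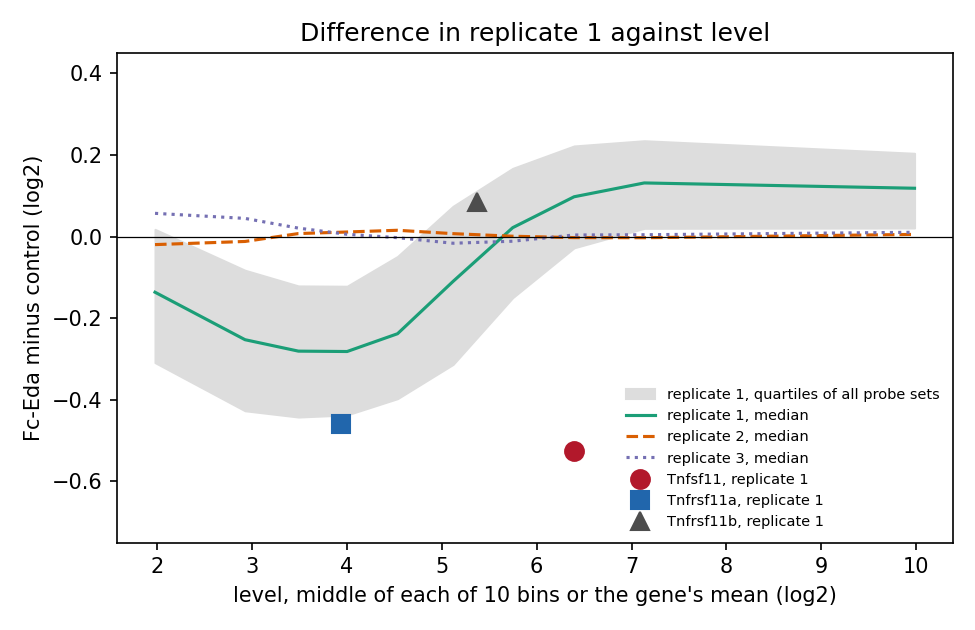
Difference between Fc-Eda and control (log2) against level (log2) for 10 bins of all probe sets, as the median in replicates 1, 2 and 3 (lines) and the quartiles in replicate 1 (band), with the replicate 1 difference of each gene as a marker. Tnfrsf11a (-0.46) lies near the band of its level, and Tnfsf11 (-0.53) lies far below a median of 0.098.

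After cyclic loess normalization, which removes level-dependent shifts between arrays, the replicate 1 difference was -0.61 for Tnfsf11, -0.18 for Tnfrsf11a and 0.16 for Tnfrsf11b. With quantile normalization these differences were -0.63, -0.19 and 0.21. After centring the arrays on their medians they were -0.34, -0.27 and 0.27. The size of the replicate 1 difference thus depended on the normalization in all 3 genes, while its sign did not change under these 3. After cyclic loess, control 1 lay above the highest other array by 0.60 for Tnfsf11 and by 0.13 for Tnfrsf11a, where the deposited gaps were 0.52 and 0.40. Over all probe sets, 1.77% had control 1 above the other 5 arrays by at least the deposited gap of Tnfsf11, and 4.08% by at least that of Tnfrsf11a. With 1 array per pool, the pool of control buds and its array cannot be told apart.

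The balance of ligand and decoy was compared as the change, from control to Fc-Eda, of the log2 ratio of Tnfsf11 to Tnfrsf11b on the same array. The ratio changed by -0.61 in replicate 1, 0.16 in replicate 2 and 0.075 in replicate 3, with a mean of -0.12 ± 0.42 (SD, n = 3). An exact two-sided sign-flip test over the 3 replicates gave p = 1, and the smallest p it allows is 0.25, so that it could not have passed a threshold of 0.05. Without replicate 1 the mean change was 0.12, of the opposite sign. These values are given as a description, and whether the balance of ligand and decoy changed is not settled by them.

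Over 16 alternatives for Tnfsf11 the difference ranged from -0.26 to 0.039, over 15 for Tnfrsf11a from -0.22 to 0.041 and over 16 for Tnfrsf11b from -0.091 to 0.030. In none of them was any of the 3 genes past the threshold, and the smallest unadjusted p was 0.196 for the ligand, 0.239 for the receptor and 0.324 for the decoy. Alternatives without the control 1 array turned the sign for Tnfsf11 and Tnfrsf11a. The size of change that the 95% intervals leave out depended on the replicates. For Tnfsf11 the interval reached from -0.51 to 0.21 with all replicates, from -0.17 to 0.24 without replicate 1 and from -0.68 to 0.17 without replicate 2. For Tnfrsf11a the lower end was -0.46 with all replicates, -0.17 without replicate 1 and -0.63 without replicate 2. For Tnfrsf11b it was -0.24, -0.29 and -0.34 in the same fits.

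**Figure D4:**
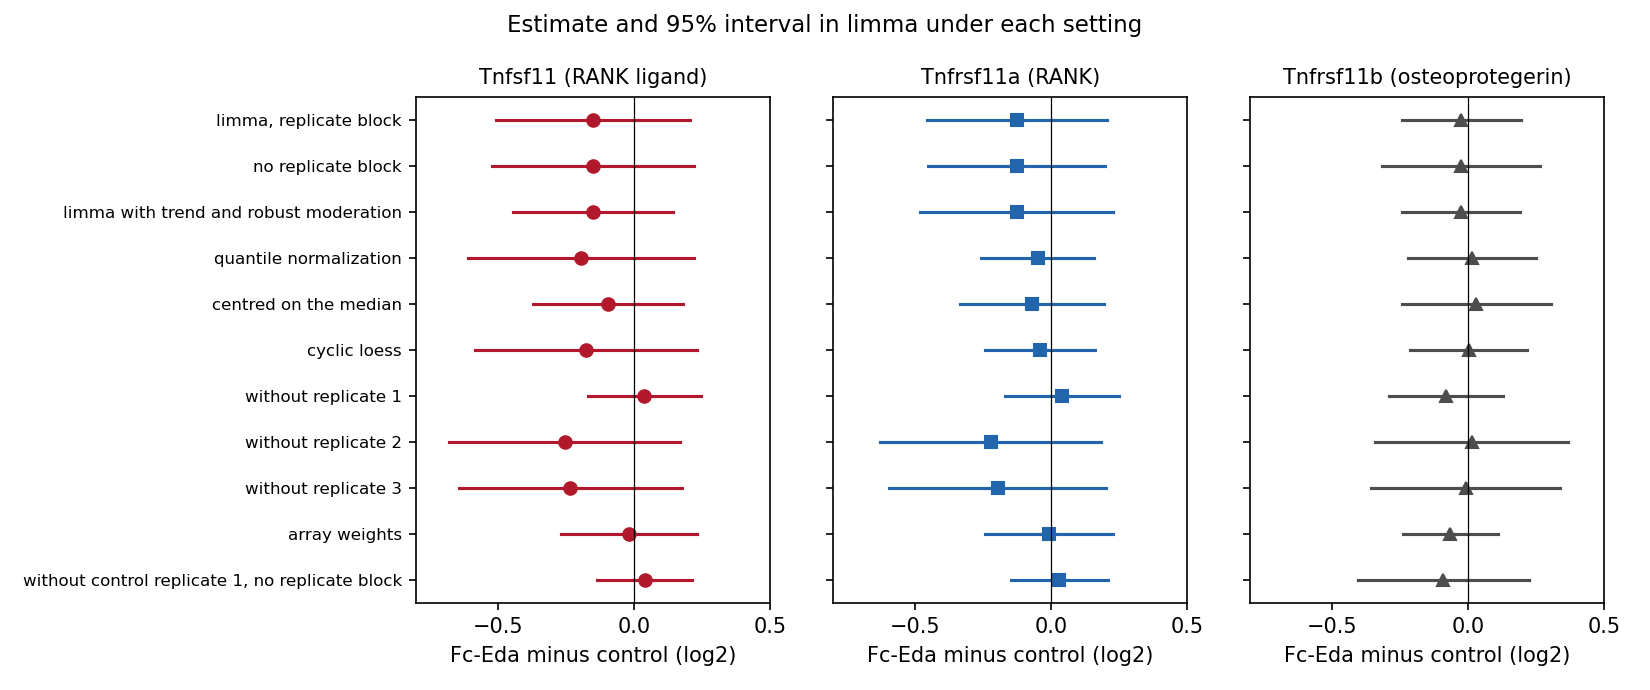
Estimated difference between Fc-Eda and control (log2, markers) with its 95% interval (lines) for the 3 genes in limma under the deposited values with the replicate block and 10 alternatives. Every interval includes 0, and the estimates of Tnfsf11 and Tnfrsf11a move above 0 where replicate 1 or the control 1 array is left out.

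The arrays were also searched for probe sets with the pattern of each gene. A Pearson correlation over 0.95 across the 6 arrays was found with Tnfsf11 in 787 probe sets (3.03%), with Tnfrsf11a in 727 (2.8%) and with Tnfrsf11b in 72 (0.277%). Across the 5 arrays other than control 1, r also exceeded 0.95 in 5 of the 787, in 13 of the 727 and in 61 of the 72. The 3 probe sets closest to Tnfsf11 had r of 0.998 to 0.999 across all 6 arrays and of 0.800 to 0.935 without control 1. The 3 closest to Tnfrsf11a fell from 0.997 or more to between 0.875 and 0.990, and the 3 closest to Tnfrsf11b were at 0.989 or more without control 1. With 6 arrays in pairs these are descriptions, and the files do not pair the identifiers of the closest probe sets with gene names. The signal transducers, target genes and other partners of the axis were not analysed here for the same reason.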

How the data were processed

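RNA of 6 pools of E13.5 Eda-/- mammary buds was measured on 6 arrays. Deposited were log2 values made by the authors, 1 for each Ensembl gene identifier on each array; the labels' processing notes name RMA, and the version, genome build and probe set definition are not given in the sources used here. No value was missing. The reference table named 0 of the 25949 identifiers, so lists of pathway and marker genes were not analysed. The members and lists were chosen with earlier results of these data known.

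Conditions and replicate numbers came from the sample titles. Same-numbered arrays share embryos, and their deviations from the condition means correlated across probe sets with r = 0.079, 0.29 and 0.29. All probe sets were fitted in limma 3.58.1 (R 4.3.3) with treatment and replicate, and p-values were turned into Storey's q-values (lambda 0.05 to 0.95 in steps of 0.05, spline of 3 degrees of freedom). The threshold was 0.05. IBMT (loess span 0.75) and the Cyber-T type test (window 101, weight 10) were written out here, and limma and these were tested on simulated data. The simulated arrays had independent noise, no replicate effect and none that stood apart, so they do not show how the tests behave on these arrays. Alternatives changed the block, moderation, adjustment, filter, normalization and replicates; array weights and a fit without control 1 were added after seeing the data. The rule for named genes was the 3 members, list members, and the 3 probe sets most alike to each member where a table names them.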

Additional observations from a re-analysis of the deposited data

How the results depend on the processing

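Limma called 0 probe sets in either direction, while without adjustment 708 rises and 864 falls had a p under 0.05. The count was 0 with Benjamini-Hochberg adjustment, quantile normalization and cyclic loess. It was 96 with trend and robust moderation, 94 in IBMT, 193 in the Cyber-T type test, 91 at or above the median level and 57 with arrays centred on their median. A plain paired t-test without moderation gave 1498 unadjusted and 1 after Benjamini-Hochberg adjustment. The paper instead describes pairing within limma, IBMT and Cyber-T, with Storey's q-values. The fit with no replicate block gave 3. Array weights, chosen after seeing the data, gave 11. Leaving out each replicate in turn gave 0 without replicate 1, 5 without replicate 2 and 11 without replicate 3. The cause was not tested.

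None of the 3 genes was called under any of these settings. The Tnfsf11 difference ranged from -0.26 to 0.037 with each replicate left out and was 0.039 without control replicate 1 and with no replicate block, chosen after seeing the data. The Tnfrsf11a difference ranged from -0.22 to 0.041, and was 0.031 in that fit; it has no value at or above the median level, since its mean lies below. With quantile normalization, centring, cyclic loess and array weights, the Tnfsf11 difference was -0.19, -0.094, -0.18 and -0.018, against -0.15 as deposited, and the Tnfrsf11a difference -0.050, -0.069, -0.041 and -0.0078, against -0.13. The Tnfrsf11b difference was 0.014 with quantile normalization, 0.030 with centring, 0.0012 after cyclic loess and -0.066 with array weights, against -0.026 as deposited, and ranged from -0.081 to 0.012 with each replicate left out. The ratio of Tnfsf11 to Tnfrsf11b ranged from -0.27 to 0.12 with each replicate left out. The fit with no replicate block left the 3 differences as they were and changed no call, with q = 0.962, 0.962 and 0.971 in limma for Tnfsf11, Tnfrsf11a and Tnfrsf11b. Not run were the counts over gene lists. Signal over background is not known, and 6 arrays limit the precision.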
